A study of Mus musculus with 16 samples.

Results

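The protein components of the cytosolic ribosome were followed through 16 libraries of mouse lavage cells and cultured macrophages. Members were the protein-coding genes whose symbol begins with Rpl or Rps followed by a digit, together with Rplp0, Rplp1, Rplp2 and Rpsa, and without the 10 Rps6k kinase genes. The rule gave 92 genes of the 47643 identifiers in the files, and it used symbols only, no measured values. Of these, 31 encode small subunit proteins, 43 large subunit proteins and 3 the P stalk, 8 are paralogs of a core protein, 6 carry pseudogene-style symbols although annotated as protein-coding, and 1, Rps19bp1, is no ribosome subunit. A total of 90 members had at least 1 count, and 75 passed the filter on low counts for the comparisons of the 4 main cell types.

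All libraries came from wild-type mice of the strain C57BL/6, and the labels name no treatment. Each of the 4 main groups held 3 libraries, of mice 1, 2 and 4: cells washed from the airways (BALF), cells washed from the peritoneal cavity (PLF), macrophages derived from bone marrow (BMDM) and alveolar macrophages kept in culture (mexAM). The other 4 libraries were cultures of alveolar macrophages from lavage pool 1, taken at passages 8 and 13, and from lavage pool 2, taken at passages 5 and 10. The labels name no sort of the lavage cells, no number of animals in a pool, no age or sex of the mice and no passage of the mexAM cultures. RNA was counted by QuantSeq, which sequences the 3′ end of each messenger, at 827791 to 2884679 gene counts per library. Levels are given as CPM, a gene's count relative to the library's total count, scaled by TMM, a normalisation that sets the bulk of genes equal between libraries. Floors of 3 counts, values and ratios over summed libraries, and counts in pseudogenes use CPM without TMM. Alveolar macrophage markers summed to 9079 CPM or more in each BALF and 5350 or more in each mexAM library, and to at most 395.7 in PLF and BMDM.

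A cytosolic ribosome is built from a small subunit, which decodes the messenger, and a large subunit, which forms peptide bonds, each made of ribosomal RNA and many small basic proteins. Most ribosomal protein messengers begin with a run of pyrimidines, the terminal oligopyrimidine (TOP) motif, through which mTOR signalling adjusts their translation together. Some proteins have paralogs with restricted expression: Rpl3l is known from heart and skeletal muscle, Rpl39l and Rpl10l from male germ cells, Rps27l as a p53 target, and Rpl22l1 as a close relative of Rpl22 whose messenger Rpl22 protein represses. Alveolar macrophages are long-lived cells of the airways that maintain themselves by division in the lung.

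The sequence of these genes limits what a 3′ count can show. Ribosomal protein genes have many processed pseudogenes, and a read that matches several places cannot be placed by sequence alone. How such reads were counted is not stated in the labels. The deposited number of reads without a unique match was 0 in all 16 libraries. Whether such reads had been removed, placed or not recorded is not stated. To describe the overlap, each 65-base stretch, the read length, of the last 300 bases of a member's transcript was searched in the transcripts of all other genes. A total of 68 of 92 members shared at least 1 such stretch with another gene, and 49 shared at least 50% of them. The median was 53.8% for members, against 0% for 78 mitochondrial ribosomal proteins, of which 17 shared any. Members with at least 50% shared had a median level of 16.9 CPM, and the others 134 CPM. Across members the Spearman correlation of the shared percentage with the mean level was -0.40, a description over 92 genes of the same libraries.

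**Figure D1:**
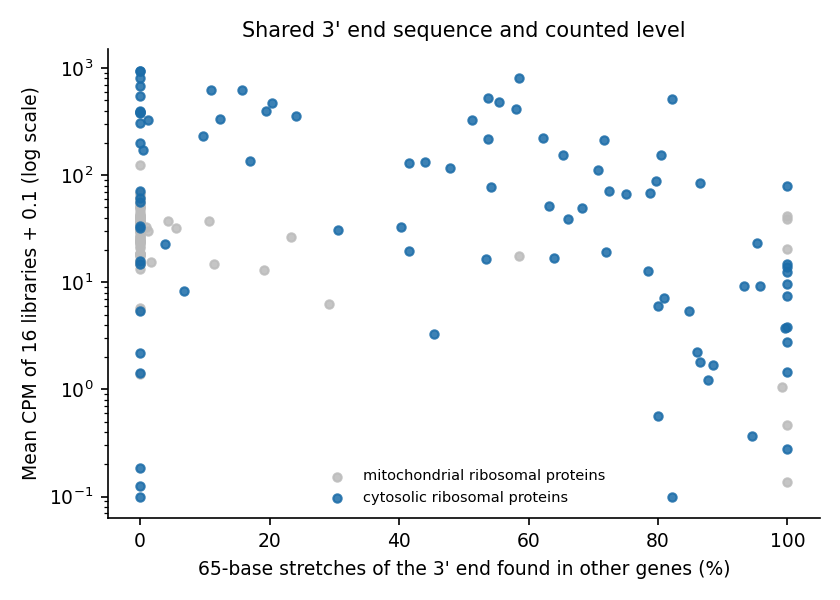
Percentage of 65-base stretches in the last 300 transcript bases that also occur in other genes (x axis) against the mean CPM over 16 libraries plus 0.1 on a log scale (y axis), 1 point per gene, blue for the 92 cytosolic and grey for the 78 mitochondrial ribosomal protein genes. Of the 27 cytosolic genes under 10 CPM, 19 share at least 50%, and of the 23 at 300 CPM or more, 6 do.

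Rps6, the small subunit protein phosphorylated by S6 kinases, had 0 counts in all 16 libraries. With 25834682 gene counts in all, 3 counts would correspond to 0.116 CPM, the limit that a count of 0 allows. Its 3′ end shared 82.2% of stretches with 10 other genes, all of them pseudogenes. Whether the shared sequence accounts for the 0 was not tested. Rpl10l, the germ cell paralog of Rpl10, also had 0 counts in every library, and no stretch of its 3′ end occurred elsewhere. Levels are therefore compared between libraries for the same gene, not between genes.

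The members' summed share of gene counts was highest in PLF. It was 2.43%, 2.51% and 2.14% in PLF of mice 1, 2 and 4, with a mean of 2.36% ± 0.194 (SD, n = 3). BALF held 1.39%, 1.29% and 1.04% (1.24% ± 0.179, n = 3), BMDM 1.28%, 1.33% and 1.45% (1.35% ± 0.0856, n = 3), and mexAM 1.40%, 1.58% and 1.57% (1.52% ± 0.0977, n = 3). Every PLF library lay above every other library, including the pools. BALF, BMDM and mexAM lay within or next to each other's range. In pool 1 the share was 1.05% (passage 8) and 1.26% (passage 13), in pool 2 1.65% (passage 5) and 1.34% (passage 10). No test was made on this sum. When the mitochondrial genome and Gm42418, a gene that overlaps ribosomal RNA, were left out of the total, the means became 2.87% in PLF, 1.63% in BALF, 1.70% in BMDM and 1.80% in mexAM.

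**Figure D2:**
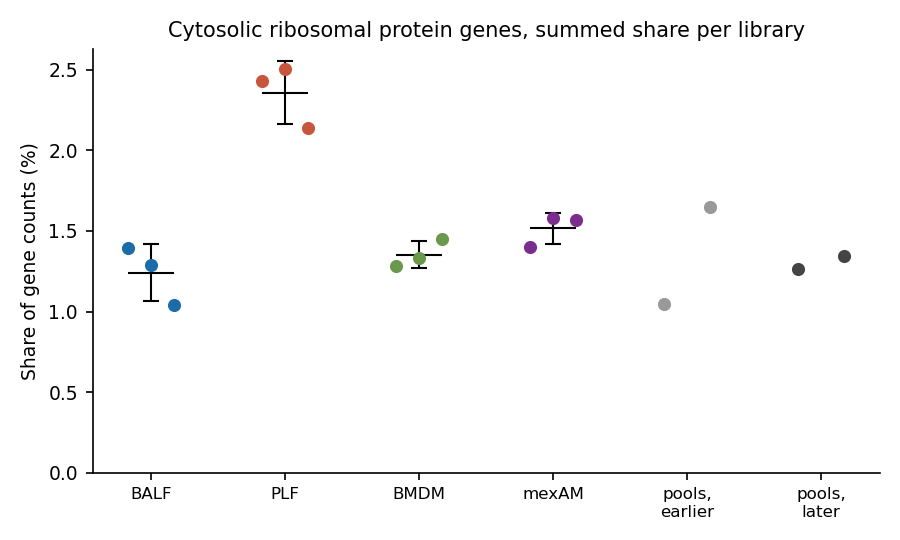
Summed share of gene counts of the 92 cytosolic ribosomal protein genes (y axis, percent) in each library, grouped by cell type (x axis). Points are libraries, and bars give the mean and SD of the 4 groups of 3; PLF libraries lie between 2.14% and 2.51%, all others at or below 1.65%.

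Many ribosomal protein genes of both subunits had higher counts in PLF than in the other 3 cell types. Against BMDM, 43 of 75 members tested were higher in PLF and 1 was lower (edgeR quasi-likelihood test, adjusted p under 0.05), while 18.0% of all 10011 genes were higher and 18.4% lower (36.5% either way). Against mexAM, 40 members were higher in PLF and 3 lower, where 29.6% of all genes were higher in PLF and 28.4% lower (57.9% either way). Against BALF, 33 members were higher in PLF and 2 lower, where 20.8% of all genes were higher in PLF and 19.5% lower (40.3% either way). Those lower in PLF than in mexAM or BALF include Rpl3l, whose calls are not used as support. With library totals in place of TMM, 57 were higher in PLF than in BALF and 1 lower. That scaling moved the median of all genes to -0.27 for BALF relative to PLF. The share of all genes called under it is not reported here, so these counts are not read as a result about the members. With TMM, the members' median log2 difference was 0.77 over BMDM, and mexAM and BALF lay at -0.64 and -0.63 relative to PLF. The median over all genes was then between -0.03 and 0.01 in every comparison of the 4 cell types. The 3 comparisons share the PLF libraries and are not independent. In 30 of the 75 members all 3 PLF libraries lay above the 9 others, as in 11.2% of all genes, and in 0 members did they lie below, as in 9.50% of all genes.

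Among small subunit genes, Rps24, mutated in some families with Diamond-Blackfan anaemia, stood at 1259, 1350 and 1165 CPM in PLF, 577, 668 and 374 in BALF and 310, 559 and 511 in mexAM. PLF lay above all BALF and mexAM libraries, which overlapped each other, and mexAM lay at -1.43 ± 0.25 relative to PLF (edgeR adjusted p = 9.43e-05). In all, 19 of 26 small subunit members tested were higher in PLF than in BMDM, 18 were lower in mexAM than in PLF and 15 were lower in BALF than in PLF, with 0 in the other direction each time. Over all genes these shares were 18.0%, 29.6% and 20.8%, with 18.4%, 28.4% and 19.5% in the other direction.

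Rps14 stood at 963, 1141 and 976 CPM in PLF and at 601, 389 and 374 in mexAM, without overlap (mexAM relative to PLF log2 -1.16 ± 0.21, edgeR adjusted p = 0.000126). Rps9 stood at 578, 608 and 477 CPM in PLF and at 290, 266 and 263 in mexAM. It was lower in every mexAM library (edgeR adjusted p = 0.000179). Rps19, the gene most often mutated in Diamond-Blackfan anaemia, stood at 372, 382 and 307 CPM in PLF and at 170, 133 and 141 in BALF. PLF exceeded BALF in every library, with BALF at -1.23 ± 0.19 relative to PLF (edgeR adjusted p = 4.4e-05). Rps2, which lines the mRNA entry channel, stood at 277, 306 and 317 CPM in PLF and at 137, 123 and 144 in BMDM (log2 1.15 ± 0.21, edgeR adjusted p = 0.000326). Rps3a1 and Rpl18 were among the largest PLF differences as well, at 1.29 ± 0.36 and 1.10 ± 0.21 over BMDM.

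Rpsa, the laminin receptor that is also a small subunit protein, varied more. It stood at 180, 73.7 and 93.3 CPM in PLF, 33.8, 47.4 and 85.3 in BMDM, 100, 69.0 and 73.0 in BALF and 60.6, 53.8 and 61.6 in mexAM. PLF and BMDM overlapped, and its call against BMDM (log2 1.06 ± 0.34, edgeR adjusted p = 0.021) was lost when any of 3 libraries was left out: PLF of mouse 1, BMDM of mouse 1 or BMDM of mouse 2.

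In the large subunit, Rpl4, which lines the peptide exit tunnel, stood at 1341, 1187 and 1120 CPM in PLF, 813, 711 and 718 in BALF, 506, 612 and 614 in BMDM and 773, 958 and 907 in mexAM. PLF lay above all other libraries, and mexAM overlapped BALF. The difference of PLF over BMDM was 1.07 ± 0.18 (edgeR adjusted p = 0.000184). Rpl13a, which in activated monocytes can leave the ribosome to silence inflammatory messengers, stood at 662, 559 and 499 CPM in PLF, 210, 280 and 284 in BMDM, 286, 310 and 260 in BALF and 520, 496 and 451 in mexAM. It was 1.14 ± 0.19 higher in PLF than in BMDM on the log2 scale (edgeR adjusted p = 0.00011), and mexAM overlapped PLF with a difference that did not pass (log2 -0.21, edgeR adjusted p = 0.345). Of 37 large subunit members tested, 18 were higher in PLF than in BMDM, 18 were lower in mexAM than in PLF and 16 were lower in BALF than in PLF, again with 0 in the other direction. The shares of all genes were 18.0%, 29.6% and 20.8%, and 18.4%, 28.4% and 19.5% in the other direction.

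The P stalk recruits elongation factors to the ribosome. Rplp0 stood at 451, 464 and 439 CPM in PLF, 319, 287 and 229 in BALF, 312, 300 and 287 in BMDM and 318, 269 and 268 in mexAM. All PLF libraries lay above the others, by 0.58 ± 0.18 over BMDM (edgeR adjusted p = 0.0152), a call lost when BMDM of mouse 2 or mouse 4 was left out. Rplp1 and Rplp2 were higher in PLF than in BMDM, by 0.85 ± 0.21 and 0.65 ± 0.18, and did not pass against mexAM (log2 -0.38 each) or BALF (log2 -0.36 and -0.31). Rpl5 and Rpl11, which with 5S RNA form the particle that binds Mdm2, passed in no comparison of the 4 cell types. Rpl5 stood at 20.9, 16.6 and 17.8 CPM in PLF and 19.3, 20.4 and 19.5 in BMDM, and Rpl11 at 93.6, 67.9 and 49.9 in PLF and 33.4, 48.1 and 78.8 in BMDM. Rps19bp1, which the symbol rule includes although it regulates SIRT1 rather than forming part of the ribosome, did not pass in any of these comparisons either.

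**Figure D3:**
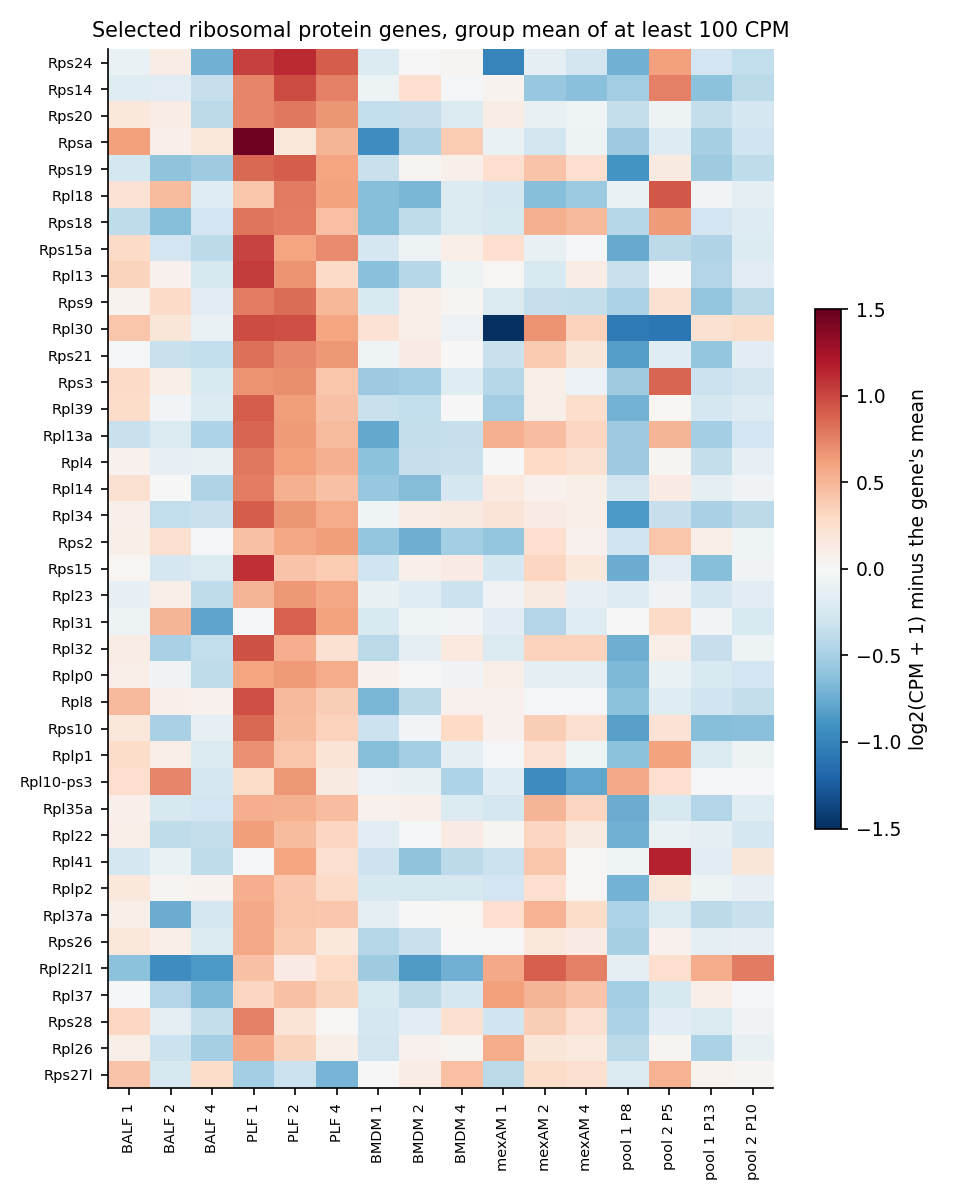
Log2(CPM + 1) of 39 members with a group mean of at least 100 CPM minus that gene's mean over 16 libraries (colour, ends at -1.5 and 1.5) for every library (columns) and gene (rows, ordered by the ratio of PLF to the other 3 main groups). PLF columns are red in most rows, Rpl22l1 is blue in BALF and BMDM, Rps27l is blue in PLF, and Rpl30 is blue in mexAM of mouse 1 and in both pools at the earlier passage.

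The PLF libraries also held other cells. Summed CPM of 6 B cell markers was 1864 to 2352 in PLF, 2.26 to 4.86 in BALF, 0.977 to 2.76 in mexAM and 90.6 to 124.7 in BMDM, with Cd79a at 0 in the last 3 groups. Summed CPM of 4 mast cell markers was 1759 to 1943 in PLF and at most 4.15 in the other main groups, with Mcpt4 at 0 in BALF and mexAM. T and NK cell markers summed to 67.9 to 82.2 CPM in PLF and to at most 1.78 elsewhere. All 4 markers of peritoneal macrophages, Gata6 among them, were present in PLF at a sum of 489 to 661 CPM, and general macrophage markers were lower there, at 1340 to 1451 CPM, than in the 3 other groups, at 2205 CPM or more. The part of B, T and mast cells in the PLF values was not tested, and in bulk RNA more cells of a type and more messenger per cell cannot be told apart. BMDM libraries held 1630 to 4545 CPM of neutrophil markers, against 36.4 to 401.2 in the other main groups, and their part in the BMDM values was not tested. Split by shared 3′ sequence, 21 of 38 members with at least 50% shared stretches and 22 of 37 others were higher in PLF than in BMDM, and 21 of 38 and 19 of 37 were lower in mexAM than in PLF. Against BALF the split was uneven, with 10 of 38 and 23 of 37 higher in PLF, and this difference was not tested. Over all genes, 18.0% were higher in PLF than in BMDM, 29.6% lower in mexAM than in PLF and 20.8% higher in PLF than in BALF. The 10 of 38 against BALF thus lie near the share of all genes.

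The promoters of several of these members were read from RefSeq (GRCm38.p6) to show the sequence around the annotated start of the messenger. A window was found for 66 of 92 members. A run of at least 8 C or T bases that touched the stretch around the annotated start was present in 23 of them (34.8%), against 11.1% of 27025 genes. The ETS-type motif CCGGAAG, on either strand, occurred in 37.9% of members' windows of 250 bases before to 50 after the start and in 9.12% of all genes' windows, and the motif TATAAA in 9.09% and 14.2%. Such matches are descriptions of sequence, not sites shown to act. The windows below run from 45 bases before to 25 bases from the annotated start, 5′ to 3′ on the gene's strand. Capitals mark the longest pyrimidine run that touches the stretch around that start. The windows are shown for 4 members with large PLF differences and for the paralogs Rpl22l1, Rps27l and Rpl3l.
Rps24, chr14:24490633-24490702, plus strand: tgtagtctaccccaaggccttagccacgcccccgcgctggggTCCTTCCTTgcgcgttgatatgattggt
Rpl4, chr9:64173342-64173411, plus strand: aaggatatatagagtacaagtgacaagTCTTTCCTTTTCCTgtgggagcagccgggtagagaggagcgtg
Rpl13a, chr7:45128721-45128790, minus strand: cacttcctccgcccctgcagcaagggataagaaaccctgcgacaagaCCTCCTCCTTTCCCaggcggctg
Rps9, chr7:3703996-3704065, plus strand: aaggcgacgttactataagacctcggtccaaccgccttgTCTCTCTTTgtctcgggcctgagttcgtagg
Rpl22l1, chr3:28805463-28805532, plus strand: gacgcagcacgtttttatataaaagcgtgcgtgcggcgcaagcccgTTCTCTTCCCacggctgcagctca
Rps27l, chr9:66946041-66946110, plus strand: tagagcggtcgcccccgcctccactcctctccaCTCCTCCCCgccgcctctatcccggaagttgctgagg
Rpl3l, chr17:24727781-24727850, plus strand: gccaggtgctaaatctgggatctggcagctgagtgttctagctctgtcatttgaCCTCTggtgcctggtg
Rps24, Rpl4, Rpl13a, Rps9, Rpl22l1 and Rps27l carried runs of 9 to 14 bases, and Rpl3l a run of 5. Rps27l holds such a run and was lower in PLF than in BMDM, BALF and mexAM. The runs of Rpl4 and Rps27l begin at bases -18 and -12 from the annotated start and end before it.

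Cultured alveolar macrophages (mexAM) and airway lavage cells (BALF) differed in 10 members. Of 75 tested, 6 were higher in mexAM than in BALF and 4 lower, against 15.2% of all genes higher and 14.8% lower (30.0% either way), and the members' median was 0.01 on the log2 scale. Erythroid markers summed to 34.0 to 648.1 CPM in BALF and to at most 2.94 in mexAM. All 4 epithelial markers were counted in BALF, at a sum of 42.4 to 64.9 CPM, against at most 0.489 in mexAM, where Krt18, Scgb1a1 and Sftpc were at 0. The part of either cell type in these values was not tested. With library totals in place of TMM, which moved the median of all genes to 0.22, 14 were higher and 1 lower. Without mexAM of mouse 2 the count called was 5, and without mexAM of mouse 4 or BALF of mouse 2 it was 6. The largest difference upward was that of the paralog Rpl22l1, which stood at 91.8, 115 and 105 CPM in mexAM, 39.6, 31.7 and 33.4 in BALF, 42.2, 33.6 and 36.7 in BMDM and 83.5, 67.1 and 75.5 in PLF. Every mexAM library lay above every library of the other 3 groups, by 1.57 ± 0.20 over BALF (edgeR adjusted p = 2.05e-05) and 1.47 ± 0.19 over BMDM (edgeR adjusted p = 7.27e-06). Over PLF the difference was 0.48 ± 0.19 (edgeR adjusted p = 0.0345), which was lost under DESeq2, with library totals alone, without the filter, with only the 2 groups, and when mexAM or PLF of mouse 2 or mouse 4 was left out.

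Rpl37, a large subunit zinc-finger protein, followed at 589, 546 and 514 CPM in mexAM against 379, 283 and 241 in BALF and 327, 291 and 322 in BMDM. The groups did not overlap, and the differences were 0.87 ± 0.19 over BALF (edgeR adjusted p = 0.00244) and 0.82 ± 0.19 over BMDM (edgeR adjusted p = 0.00176). Rpl13a was higher in mexAM than in BALF by 0.78 ± 0.19 and than in BMDM by 0.94 ± 0.18 (edgeR adjusted p = 0.00431 and 0.00048). Rps19 stood at 242, 274 and 242 CPM in mexAM, above all BALF libraries (log2 0.77 ± 0.19, edgeR adjusted p = 0.00486) and above those of BMDM at 162, 209 and 215, where the difference did not pass (log2 0.39, edgeR adjusted p = 0.0951). Rps18 and Rpl37a passed against BALF too, at 0.74 ± 0.22 and 0.62 ± 0.20, and lost the call in 4 and 3 of the 6 fits without 1 library. The comparisons of mexAM with BALF and with BMDM share the mexAM libraries.

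Lower in mexAM were Rpl10, which joins the large subunit last, and Rpl10-ps3, an intronless copy of it. Rpl10 stood at 7.06, 3.91 and 4.34 CPM in mexAM, 12.5, 22.6 and 9.92 in BALF, 16.7, 12.5 and 9.48 in BMDM and 15.5, 20.7 and 18.4 in PLF. All mexAM libraries were below all others, with log2 differences of -1.53 ± 0.39 to BALF, -1.37 ± 0.37 to BMDM and -1.83 ± 0.37 to PLF (edgeR adjusted p = 0.00693, 0.00618 and 0.000427). The call against BMDM was lost without BMDM of mouse 1. Rpl10-ps3 stood at 67.1, 39.1 and 43.8 CPM in mexAM against 91.0, 127 and 64.0 in BALF (log2 -0.91 ± 0.26, edgeR adjusted p = 0.0152), with overlap, and lost the call in 3 of the 6 fits without 1 library. All stretches of both 3′ ends occur in other genes, 10 for each, of which 9 are pseudogenes, so both levels are uncertain. Rpl18 was lower as well (log2 -0.67 ± 0.21, edgeR adjusted p = 0.0246), a call lost without 4 of the 6 libraries in turn. Rps27rt, an intronless copy of Rps27 named after its values were seen, completed the 4, at 5.88, 3.91 and 5.13 CPM in mexAM and 17.4, 10.2 and 7.21 in BALF. All of its 3′ stretches occur in other genes, 6 in all and 5 of them pseudogenes, and 80.5% of those of Rpl18 do. Of 38 members with at least 50% shared stretches, 4 were lower in mexAM than in BALF and 3 higher. Of the 37 others, 0 were lower and 3 higher. The part of shared sequence in these calls was not tested.

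Against BMDM, 10 members were higher in mexAM and 1, Rpl10, was lower, out of 75 tested, while 21.5% of all genes were higher and 23.0% lower (44.6% either way). Besides Rpl22l1, Rpl13a, Rpl37 and Rpl3l these included Rpl4 (0.62 ± 0.18), Rpl14 (0.59 ± 0.20), Rps18 (0.72 ± 0.22), Rps2 (0.57 ± 0.21) and Rpl17 (1.03 ± 0.30), the latter named after its values were seen. The call of Rpl3l is counted here but not used as support, since it passed the filter through the groups where it is high. Rpl4, at 773, 958 and 907 CPM in mexAM against 506, 612 and 614 in BMDM, did not overlap. Rps2 and Rps18 lost the call in 4 and 3 of the 6 fits without 1 library, and Rps2 also with library totals and with only the 2 groups. Rpl4 lost it without BMDM of mouse 1, and Rpl14 without BMDM of mouse 1 or mouse 2. Without BMDM of mouse 1, 5 members were called in all.

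Between BALF and BMDM, 5 members were higher in BALF and 0 lower, against 18.2% of all genes higher and 19.3% lower (37.4% either way). Rps2 stood at 219, 243 and 201 CPM in BALF and 137, 123 and 144 in BMDM, without overlap (log2 0.72 ± 0.21, edgeR adjusted p = 0.0114), a call lost without BMDM of mouse 2 and with library totals. The 5 included Rpl18 (0.70 ± 0.21, lost in 3 of the 6 fits without 1 library), Rpl3l and Rpl9-ps6, the latter named because the count is small. Of the 5, 4 were among the 38 members with at least 50% shared 3′ stretches. The 1 among the 37 others was Rpl3l, whose call is not used as support, since it passed the filter through the groups where it is high. The numbers higher and lower moved with the scaling. With library totals alone, which moved the median of all genes to -0.32, 2 were higher and 8 lower. The count called was 2 without BMDM of mouse 2, 3 without BMDM of mouse 1 or BALF of mouse 2, 8 without BMDM of mouse 4 and 10 without BALF of mouse 4.

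**Figure D4:**
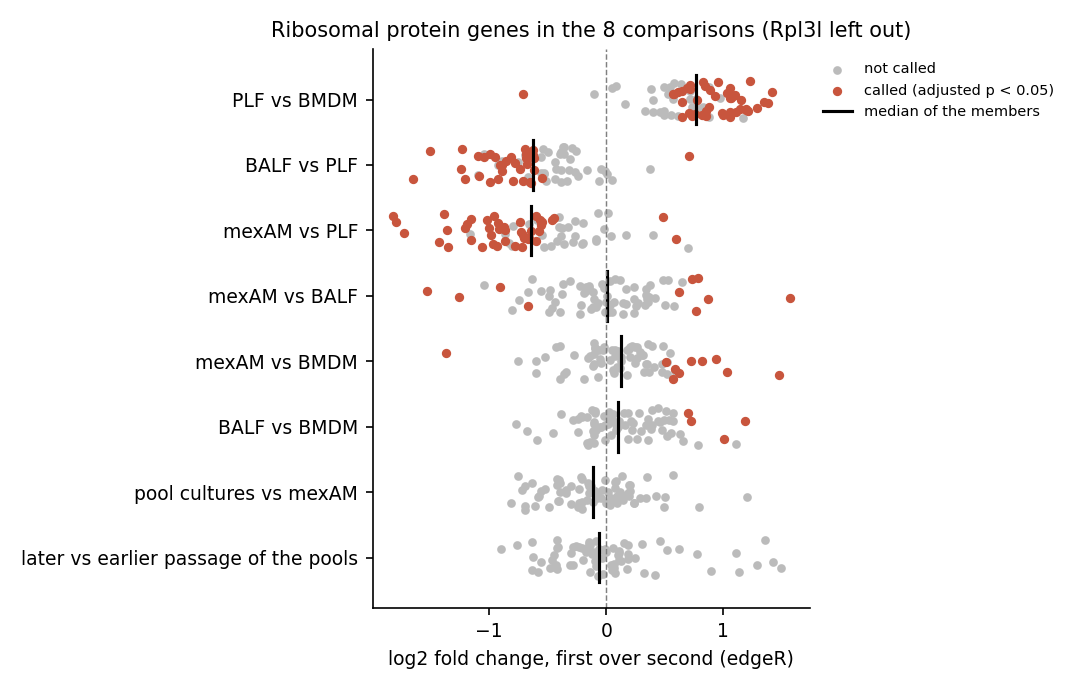
Log2 fold change of every tested member (x axis; the first-named group over the second) in each of the 8 comparisons (y axis), with called members in red, others in grey and the median of the members as a black line. Rpl3l is left out of the points, since it had 0 counts in PLF; the medians lie at 0.77, -0.63 and -0.64 in the 3 comparisons with PLF and between -0.11 and 0.13 in the others.

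The paralogs were compared as a share of the counts of each pair within a library, a measure that does not depend on the library's scaling. Of 8 pairs considered, 6 could be compared, since Rpl10l had no counts and Rps4l is annotated as a pseudogene. The 12 libraries of the 4 main groups were tested by an exact permutation test of the group labels over 369600 arrangements, adjusted by Benjamini-Hochberg over 6 pairs. The test asks whether the groups differ at all, not which group is higher. In 4 pairs the share differed between groups. Libraries of the same mouse entered as separate libraries.

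Rpl22l1 made up 21.3%, 21.9% and 22.5% of its pair with Rpl22 in mexAM. In BALF it made up 10.9% ± 0.754, in BMDM 10.5% ± 1.92 and in PLF 14.2% ± 1.36 (SD, n = 3 each), and the mexAM mean was 21.9% ± 0.597. The share differed between the main groups (exact permutation p = 0.00104, adjusted 0.00623), and the mexAM libraries lay above those of BALF, BMDM and PLF. The pools were as high, with 21.9% and 23.4% in pool 1 at passages 8 and 13 and 19.3% and 27.9% in pool 2 at passages 5 and 10. Rpl22 itself did not pass between mexAM and BALF (338, 411 and 360 against 353, 251 and 256 CPM, log2 0.37, edgeR adjusted p = 0.156). The gene Rpl22l1 lies on chr3:28805436-28807424, plus strand, opposite the predicted gene Gm33051, and 78.8% of its 3′ stretches occur in 5 other genes, 3 of them pseudogenes.

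Rpl3l (chr17:24727820-24736143, plus strand), the paralog known from striated muscle, was counted in lung macrophages. Its share of the pair with Rpl3 was 7.39% ± 3.10 in BALF, 1.10% ± 1.20 in BMDM, 0% in PLF and 12.6% ± 5.73 in mexAM (n = 3 each, exact permutation p = 0.0191, adjusted 0.0286). In counts, BALF had 20, mexAM 51, BMDM 3 and PLF 0, from 3 libraries each, and the pools had 13 (earlier) and 55 (later passages). As CPM over the summed libraries, without TMM, this was 5.07 in BALF (95% Poisson interval 3.10 to 7.83), 8.22 in mexAM (6.12 to 10.8), 0.582 in BMDM (0.120 to 1.70) and 0 in PLF, where 3 counts would be 0.700 CPM. Against a floor of 3 counts over the PLF group, BALF was 7.24-fold higher, mexAM 11.7-fold and the pools 15.6-fold. The lower 95% limits against the 0 counts of PLF were 5.36 for BALF, 9.21 for mexAM and 12.3 for the pools. The ratio to BMDM was 8.72 for BALF (95% interval 2.58 to 45.8) and 14.1 for mexAM (4.57 to 70.8); these intervals cover counting error only. Rpl3l passed the filter on low counts through the groups where it is high, so its edgeR calls are not used as support. With TMM, single libraries ranged from 2.70 to 7.92 CPM in BALF, 3.42 to 11.8 in mexAM and 3.72 to 20.4 in the pools, so the levels were low and varied. No stretch of its 3′ end occurred in another gene, while 75% of those of Rpl3 occur in other genes, 7 in all and all of them pseudogenes. Whether the share gives the ratio of the messengers of the pair was not tested. Rpl3 itself stood at 123, 85.3 and 89.2 CPM in PLF and 45.9, 53.8 and 60.0 in mexAM, lower in mexAM (log2 -0.87 ± 0.24, edgeR adjusted p = 0.00533).

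The paralog Rps27l was lower in PLF. It stood at 92.3, 105 and 80.9 CPM in PLF, 176, 111 and 159 in BALF, 132, 142 and 179 in BMDM and 98.8, 159 and 155 in mexAM. PLF was below every BALF and BMDM library, and mexAM of mouse 1 fell within its range. BALF was higher than PLF by 0.71 ± 0.23, mexAM by 0.60 ± 0.23, and PLF lay at -0.71 ± 0.23 relative to BMDM (edgeR adjusted p = 0.0226, 0.0344 and 0.0221). Leaving out 1 library removed these calls in 3, 4 and 2 of 6 fits. DESeq2, library totals, the mouse block and a fit of only the 2 groups each removed that of mexAM over PLF, and library totals that of BALF over PLF. Its share of the pair with Rps27 was 92.4% ± 0.925 in PLF and 97.4% to 98.4% in the other groups' means (exact permutation p = 0.00325, adjusted 0.00701). Rps27 had only 1.76 to 9.93 CPM in the main groups and all its stretches occur in other genes, and whether this share gives the ratio of the 2 messengers was not tested.

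Rpl39l had 15 counts in BALF, 18 in BMDM, 5 in PLF and 0 in mexAM, where 3 counts would be 0.483 CPM. Against that floor BALF was 7.86-fold and BMDM 7.22-fold higher, with the counting error of the BALF and BMDM counts left out. As a share of its pair with Rpl39 it made up 1.79% ± 0.242 in BALF, 1.60% ± 0.790 in BMDM and 0.316% ± 0.0759 in PLF (exact permutation p = 0.00351, adjusted 0.00701). Pool 1 had 0 counts at both passages and pool 2 a share of 1.60% at passage 5 and 2.02% at passage 10, so the pools differed from each other. Rpl39l was too low for the edgeR filter, and no stretch of its 3′ end occurred elsewhere. For Rpl36al with Rpl36a and Rpl7l1 with Rpl7 the shares did not pass (exact permutation p = 0.336 and 0.138, adjusted 0.336 and 0.165). Rpl7l1 held 69.9% ± 3.53 of its pair in PLF and 82.5% ± 8.50 in mexAM, with 92.3% in mexAM of mouse 1, where Rpl7 was low.

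**Figure D5:**
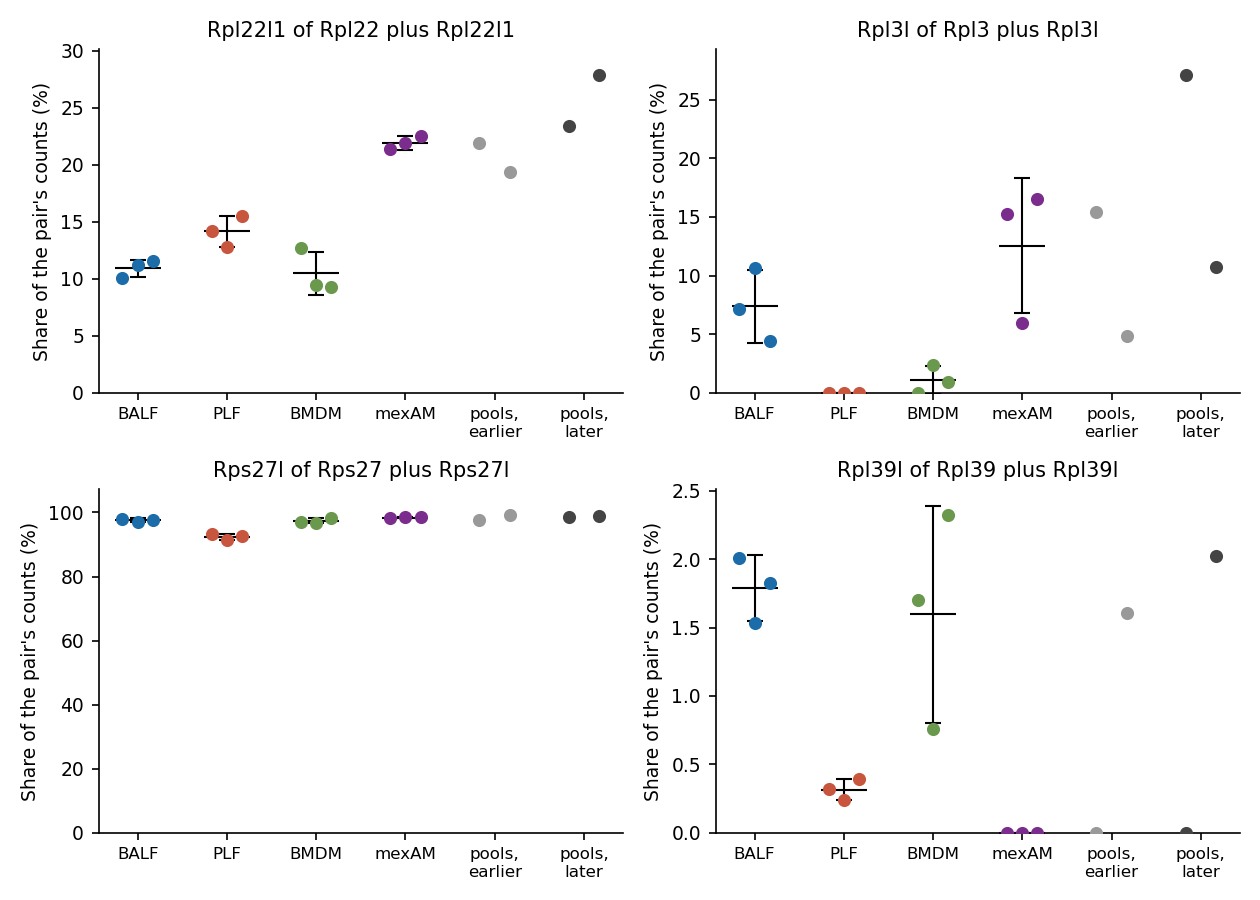
Share of each paralog in the counts of its pair (y axis, percent, different scales) by library and group (x axis), with mean and SD for the 4 groups of 3. Rpl22l1 lies at 21.3% to 22.5% in mexAM and at 15.5% or less in BALF, PLF and BMDM; Rpl3l is at 0% in PLF and Rpl39l at 0% in mexAM.

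The pool cultures did not differ from mexAM in any member by the edgeR test with adjustment. Of 76 members tested 0 were called in either direction, where 0.698% of all 10602 genes were called (0.519% higher and 0.179% lower). In addition, 15 members had an unadjusted p under 0.05, and DESeq2 called 5, all lower in the pools. The shares of all genes for these last counts are not reported here, so the counts are not read as a result about the members. The members with the smallest p were Rps19, at 109 and 141 CPM in pool 1, 224 and 157 in pool 2 and 242, 274 and 242 in mexAM (log2 -0.72 ± 0.21, edgeR adjusted p = 0.0984), and Rpl13a, at 246 and 253 in pool 1, 512 and 295 in pool 2 and 520, 496 and 451 in mexAM (log2 -0.69 ± 0.21, edgeR adjusted p = 0.114). In both, pool 2 at passage 5 was nearer to mexAM than the other 3 pool libraries. Between later and earlier passage 0 of 76 members were called, against 0.00950% of all genes, and DESeq2 called 0. At an unadjusted p under 0.05 there were 6, for which the share of all genes is likewise not reported here. Each arm held 2 libraries. Rpl22l1 stood at 55.8 and 73.2 CPM at passages 8 and 5 and at 90.6 and 106 at passages 13 and 10 (log2 0.62 ± 0.24, edgeR adjusted p = 0.474), higher in both pools.

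The mexAM library of mouse 1 stood apart in several members. In it, 6 of 64 members of at least 10 CPM (9.38%) were below 50% of both other mexAM libraries, against 2.82% of all genes, while every other library of the main groups had 0 or 1 such member. Among them were Rpl30, Rpl7, Rps3a1 and Rps4x, named after their values were seen. Rpl30 stood at 11.8 CPM there and at 124 and 98.7 in mexAM of mice 2 and 4, 103, 88.2 and 72.1 in BALF and 154, 152 and 117 in PLF. In pool 1 it was 36.5 and then 91.2, in pool 2 36.0 and then 94.3, from the earlier to the later passage. No group comparison of Rpl30 passed. Rpl30, Rps3a1 and Rpl7 share 3′ stretches with pseudogenes (79.7% for Rpl30).

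Other lists of genes for protein synthesis were counted the same way. Of translation factors and other TOP messengers, 10 of 19 tested were higher in PLF than in BMDM and 0 lower, 9 were lower in mexAM than in PLF and 1 higher, and 9 were lower in BALF than in PLF and 0 higher. Over all genes, 18.0% were higher in PLF than in BMDM, 29.6% lower in mexAM than in PLF and 20.8% lower in BALF than in PLF. Among them Eef1a1, which delivers tRNA to the ribosome, averaged 331 CPM in PLF and 121 in mexAM (log2 -1.42 ± 0.27, edgeR adjusted p = 0.000229), and Eef1g averaged 185 in PLF and 80.0 in BMDM (log2 1.20 ± 0.19, edgeR adjusted p = 0.000102). The list's median was 0.60 for PLF over BMDM and -0.43 for mexAM relative to PLF.

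Mitochondrial ribosomal proteins, which translate the messengers of the mitochondrial genome, were counted in 74 tested genes. Of these, 46 were higher in mexAM than in PLF and 2 lower, with a median of 0.78, where 28.4% of all genes were higher and 29.6% lower. In BALF 14 were higher than in PLF and 1 lower (19.5% and 20.8% of all genes), a count of higher genes near that share. In PLF 1 was higher than in BMDM and 9 lower (18.0% and 18.4% of all genes). Mrps15 averaged 102 CPM in mexAM and 31.7 in PLF (log2 1.70 ± 0.22, edgeR adjusted p = 3.88e-06). In mexAM 14 were higher than in BALF and 1 lower (15.2% and 14.8% of all genes), and 25 were higher than in BMDM and 2 lower (21.5% and 23.0% of all genes). Mrpl45 averaged 53.8 CPM in mexAM and 23.1 in BALF (log2 1.20 ± 0.27, edgeR adjusted p = 0.00288).

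Among genes that assemble ribosomes, for processing of the small subunit 12, 10 and 10 of 41 tested were higher in BALF, mexAM and PLF than in BMDM and 0, 1 and 0 lower, and for large subunit assembly 13, 10 and 14 of 46 were higher and 0 lower. Over all genes 18.2%, 21.5% and 18.0% were higher than in BMDM in these 3 groups, so the mexAM counts of both lists lie near the share of all genes. Gnl3, nucleostemin, averaged 114 CPM in BALF, 98.1 in mexAM and 119 in PLF against 49.0 in BMDM, at log2 differences of 1.22 ± 0.22, 1.01 ± 0.22 and 1.27 ± 0.22. Dkc1, the pseudouridine synthase of the H/ACA particle, averaged 116 CPM in mexAM, 69.3 in BALF, 55.8 in PLF and 32.8 in BMDM, and mexAM exceeded BMDM by 1.83 ± 0.27 (edgeR adjusted p = 2.81e-05). Of 13 tested genes of RNA polymerase I and its factors, 3 were higher in PLF than in BMDM and 0 lower, near the share of all genes. In mexAM 1 was higher than in PLF and 3 lower, where 28.4% of all genes were higher and 29.6% lower. Each of the other 4 comparisons of the main groups called 1 to 3 of them, where 30.0% to 44.6% of all genes were called. Myc, a regulator of ribosome production, averaged 37.9 CPM in PLF and 6.48 in BMDM (log2 2.53 ± 0.44, edgeR adjusted p = 0.000251). Mtor averaged 45.8 CPM in mexAM and 17.4 in BALF (log2 1.38 ± 0.28, edgeR adjusted p = 0.0012). Both belong to a list of 17 tested genes of mTOR complex 1, TOP messenger binding and Myc. Of these, 3 were higher in PLF than in BMDM, near the 18.0% of all genes, and 1 was lower (18.4% of all genes). In mexAM 4 were higher than in BALF and 2 lower, against 15.2% and 14.8% of all genes. Among those lower were Deptor in PLF (log2 -1.47 ± 0.24) and Rheb in mexAM (log2 -0.97 ± 0.21). Fau, a ribosomal protein made as a fusion and outside the symbol rule, averaged 19.7 CPM in mexAM, 36.8 in BALF and 35.2 in PLF, lower in mexAM than in both (log2 -0.88 ± 0.27 and -0.80 ± 0.27, edgeR adjusted p = 0.0214 and 0.0166).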

How the data were processed

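Per the labels' protocols, 150 ng of total RNA per sample was made into QuantSeq FWD libraries that carry unique molecular identifiers, amplified for 15 cycles and read as 65 bp single ends. The authors' deposited files hold raw counts per Ensembl gene on GRCm38 (mm10, per the submitters' processing notes). The aligner, the counting program, the annotation release, the handling of reads with several matches and any collapsing by identifiers are not stated there, so that intervals and floors reflect counting error alone. Lines that name no gene were left out of totals: reads outside genes made up 27.6% to 29.9% of counted reads in PLF and 13.3% to 15.5% in mexAM.

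Names came from GENCODE release 21 of the mouse (M21), which names 47224 of the identifiers. The edgeR 4.0.16 quasi-likelihood test (robust, R 4.3.3) was run after filterByExpr and TMM scaling, with p-values adjusted by Benjamini-Hochberg over all genes at 0.05. The 4 main groups were fitted together (12 libraries, 10011 genes, 8 residual degrees of freedom). The pools entered a fit of 14 columns with the passages of each pool summed (10602 genes), and passages were compared over 16 libraries (10527 genes). The SE of a log2 fold change is its size over the root of F. Mice are separate animals per the labels, which number the same mice across cell types. Same-mouse correlations of deviations from group means ran from -0.118 to 0.220 (median -0.0207, 2 of 18 over 0.1).

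Members, lists and pairs were chosen with earlier results of these data known. Named were the genes of the paralog pairs, 9 fixed members (Rplp0, Rplp1, Rplp2, Rpsa, Rps6, Rpl5, Rpl11, Rpl13a, Rps19), up to 8 called members of largest change per direction and comparison whose higher group averaged 50 CPM or more, members at 0 in all libraries, and up to 4 called genes of at least 10 CPM per other list. The text gives a selection, and results of some members are not reported here. The edgeR test was also run on simulated counts, for mexAM against BALF. Alternatives were DESeq2 1.42.0, library totals, scaling from other genes, no filter, the mouse block, only the 2 groups compared, and leaving out each library.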

Additional observations from a re-analysis of the deposited data

Results flagged for a closer look

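The summed share of the members moved in opposite directions with passage in the 2 pools, by 0.218 percentage points upward in pool 1 from passage 8 to 13 and by -0.306 percentage points in pool 2 from passage 5 to 10. The same held for the share of Rps27l in its pair, at 1.11 and -0.329 percentage points, and for the share of Rpl36al, at -5.26 and 1.48 percentage points. With 1 library per pool and passage these differences between pools were not tested.

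Counts also fell in pseudogenes with Rpl or Rps symbols, which no comparison used. Of 274 such genes in the files 191 had counts, at 143 to 350 CPM per library, highest in PLF (317 CPM ± 29.2, n = 3) and at 175 to 179 CPM on average in BALF, BMDM and mexAM. What share of these reads came from the members was not tested.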

How the results depend on the processing

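Of 72 named calls, 47 held under every alternative run and 0 reversed; 25 were lost without at least 1 library, 9 with library totals alone, 6 with only the 2 groups, 3 with the mouse block, 3 without the filter, 2 under DESeq2 and 1 with scaling from other genes. The number of members called in the fits without 1 library ran from 5 to 12 for mexAM against BALF, 5 to 12 against BMDM, 31 to 40 against PLF, 2 to 10 for BALF against BMDM, 26 to 32 for BALF against PLF, 32 to 42 for PLF against BMDM, and was 0 throughout for the pools against mexAM and for passage. With library totals alone it was 10 for BALF against BMDM and 58 for BALF against PLF (1 higher and 57 lower in BALF, with the median of all genes at -0.27). For the pools against mexAM, DESeq2 called 5 and the fit without a filter 1. With the mouse as replicate block, 10, 10, 40, 4, 37 and 43 members were called in the 6 comparisons of the main groups (mexAM against BALF, BMDM and PLF, BALF against BMDM and PLF, PLF against BMDM) and 0 for passage, none of which moved by over 1.5 times. For the pools against mexAM no paired analysis was possible because the pools are not numbered mice. Without Gm42418 and the mitochondrial genome the summed share became 1.63% in BALF, 1.70% in BMDM, 2.87% in PLF, 1.80% in mexAM and 1.63% in the later passages of the pools. The adjusted p of the paralog shares stayed on its side of 0.05 under each alternative. Depth limits Rpl3l and Rpl39l, with 142 and 53 counts in all.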
